A study of Mus musculus with 6 samples.

Results

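The unfolded protein and amino acid stress response was followed through 10 genes in duodenal RNA of mice labelled wild type or null for the vitamin D receptor (VDR). A gene was taken when the platform annotation pairs a probe set with its symbol alone, and 9 of the 10 qualified: the chaperones Hspa5 and Hsp90b1, the co-chaperone Dnajb9, the transcription factor Xbp1, the degradation factor Herpud1, and Atf4, Ddit3, Trib3 and Asns of the ATF4 branch. The only probe set of the tenth, Pdia4, is paired with a further symbol and was not used. These 9 genes are 9 of 22180 with such a probe set, and all 9 passed the filter on dim genes that left 13174 to be tested (at least 3 of the 6 arrays above 5.17, the median of the whole table).

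Total RNA came from the duodenum of 10-week-old mice on a C57Bl/6 strain background, 3 labelled wild type and 3 labelled VDR-null, with 1 Affymetrix Mouse Gene 2.0 ST array per sample. Nothing was changed in these mice apart from the genotype, as far as the labels say. The labels give neither sex, diet nor the way the null allele was made, and they do not say whether the RNA came from the mucosa or the full wall. The labels do not say that each array is a mouse of its own beyond numbering them, so the spread within a genotype is that between these samples. RNA of a whole organ segment mixes many cell types, and fewer cells of a type cannot be told apart from less RNA per cell.

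When unfolded proteins build up in the endoplasmic reticulum (ER), 3 membrane sensors respond. ATF6 is cleaved to an active transcription factor and IRE1 (genes Ern1 and Ern2) splices the Xbp1 messenger, and both raise chaperones and degradation factors. PERK (Eif2ak3) phosphorylates the initiation factor eIF2, which slows translation in general but favours that of ATF4. Amino acid shortage reaches the same factor through the kinase GCN2 (Eif2ak4), and ATF4 then switches on genes such as Asns, Trib3 and Ddit3. Secretory cells of the gut, among them Paneth, goblet and plasma cells, depend on the IRE1 and XBP1 arm. A gene-level array signal shows neither the splicing of Xbp1 nor the translation of Atf4.

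The start regions of 5 of the 9 genes hold a stress response motif. Those of Hspa5, Hsp90b1, Herpud1 and Asns are printed because they carry the matches described next. All 9 genes had a RefSeq window of 250 bases before to 50 after the start site (GRCm38.p6). The windows were searched on both strands for the ER stress element ERSE (CCAAT and CCACG with 9 free bases between them, where ATF6 binds with NF-Y), ERSE-II (ATTGG and CCACG with 1 free base between them), a core of the unfolded protein response element UPRE (TGACGTG) and a core of the C/EBP-ATF response element CARE (TGATG and AA with 1 free base between them), the kind of site ATF4 binds. The 250 upstream bases follow 5′ to 3′ along each gene's strand, with the matched letters in capitals and the free positions of each motif in lower case. They lie at chr2:34771840-34772089 (Hspa5, plus strand), chr10:86705445-86705694 (Hsp90b1, minus strand), chr8:94386179-94386428 (Herpud1, plus strand) and chr6:7693210-7693459 (Asns, minus strand).
Hspa5: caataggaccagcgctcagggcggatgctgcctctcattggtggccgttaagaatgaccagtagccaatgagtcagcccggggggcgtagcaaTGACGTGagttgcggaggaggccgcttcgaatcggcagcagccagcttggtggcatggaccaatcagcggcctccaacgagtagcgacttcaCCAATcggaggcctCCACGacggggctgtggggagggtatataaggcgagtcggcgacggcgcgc
Hsp90b1: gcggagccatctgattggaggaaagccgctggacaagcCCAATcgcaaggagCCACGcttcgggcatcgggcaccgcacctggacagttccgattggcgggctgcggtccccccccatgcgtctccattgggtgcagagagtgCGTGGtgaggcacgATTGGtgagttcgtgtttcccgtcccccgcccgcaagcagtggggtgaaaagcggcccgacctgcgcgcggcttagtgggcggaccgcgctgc
Herpud1: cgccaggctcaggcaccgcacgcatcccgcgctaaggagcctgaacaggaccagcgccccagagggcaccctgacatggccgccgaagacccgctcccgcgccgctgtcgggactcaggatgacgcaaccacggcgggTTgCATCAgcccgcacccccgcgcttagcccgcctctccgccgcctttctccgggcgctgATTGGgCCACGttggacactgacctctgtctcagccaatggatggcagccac
Asns: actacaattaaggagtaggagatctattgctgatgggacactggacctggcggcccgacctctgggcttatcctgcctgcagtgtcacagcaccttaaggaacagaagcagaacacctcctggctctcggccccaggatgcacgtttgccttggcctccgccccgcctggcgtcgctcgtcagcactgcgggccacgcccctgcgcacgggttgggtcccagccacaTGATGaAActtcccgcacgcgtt

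Hspa5 held 1 ERSE, from 65 to 47 bases before the start, and 1 UPRE core, from 157 to 151 bases before it. Hsp90b1 held 2 ERSEs, 1 on each strand. Herpud1 was the member with a match of both kinds, an ERSE-II from 52 to 42 bases and a CARE core from 112 to 105 bases before the start. In Asns the CARE core lay 23 to 16 bases before the start, and in Trib3 it lay just inside the transcript, from base 15 to 22 (TTACATCA). Dnajb9, Xbp1, Atf4 and Ddit3 had no match to these letters in this window. Among all 32851 windows of the RefSeq table, 0.119% held the ERSE, 0.0365% the ERSE-II, 2.01% the UPRE core and 3.97% the CARE core. No matches overlapped each other in the 9 windows. A match is a description of the sequence and not a measured binding site.

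**Figure D1:**
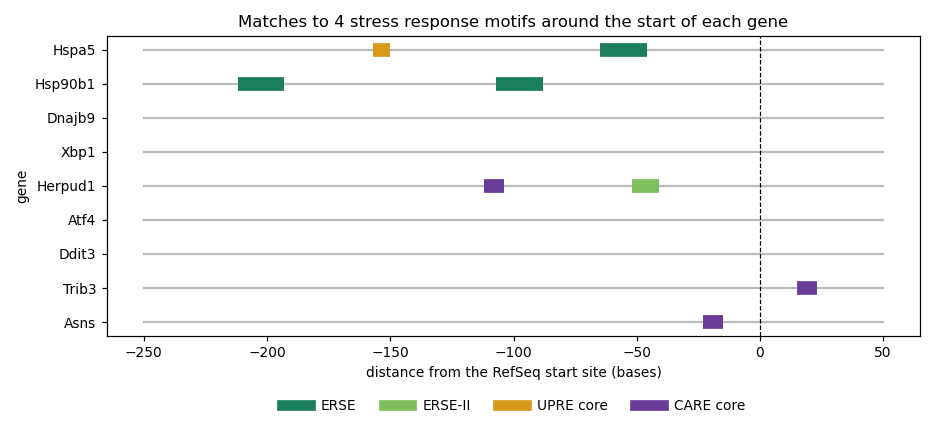
Position of motif matches in the windows of the 9 genes; the x axis is the distance from the RefSeq start site in bases (dashed line), each grey line is 1 window and each coloured block 1 match. ERSE and ERSE-II blocks lie on Hspa5, Hsp90b1 and Herpud1, and CARE cores on Herpud1, Trib3 and Asns.

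Neither the chaperones nor the ATF4 branch differed between the genotypes past the threshold. Of the 9 genes 5 were higher and 4 lower on VDR-null arrays, by between -0.22 and 0.34 on the log2 scale, and 0 passed an adjusted p of 0.05 in limma, nor did any reach an unadjusted p under 0.05. Over all 13174 genes 0 passed as well (0%), while 5.23% had an unadjusted p under 0.05. The 95% confidence intervals reached at most a 1.82-fold higher level (Dnajb9) and a 1.81-fold lower level (Asns) in VDR-null duodenum, so larger mean differences lay outside them. Array spread was wide for several members. The standard deviation within a genotype was 0.42 for Herpud1, 0.41 for Asns and 0.39 for Dnajb9, against a median of 0.15 over all tested genes. It was smallest for Ddit3 at 0.10 and for Atf4 at 0.12.

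**Figure D2:**
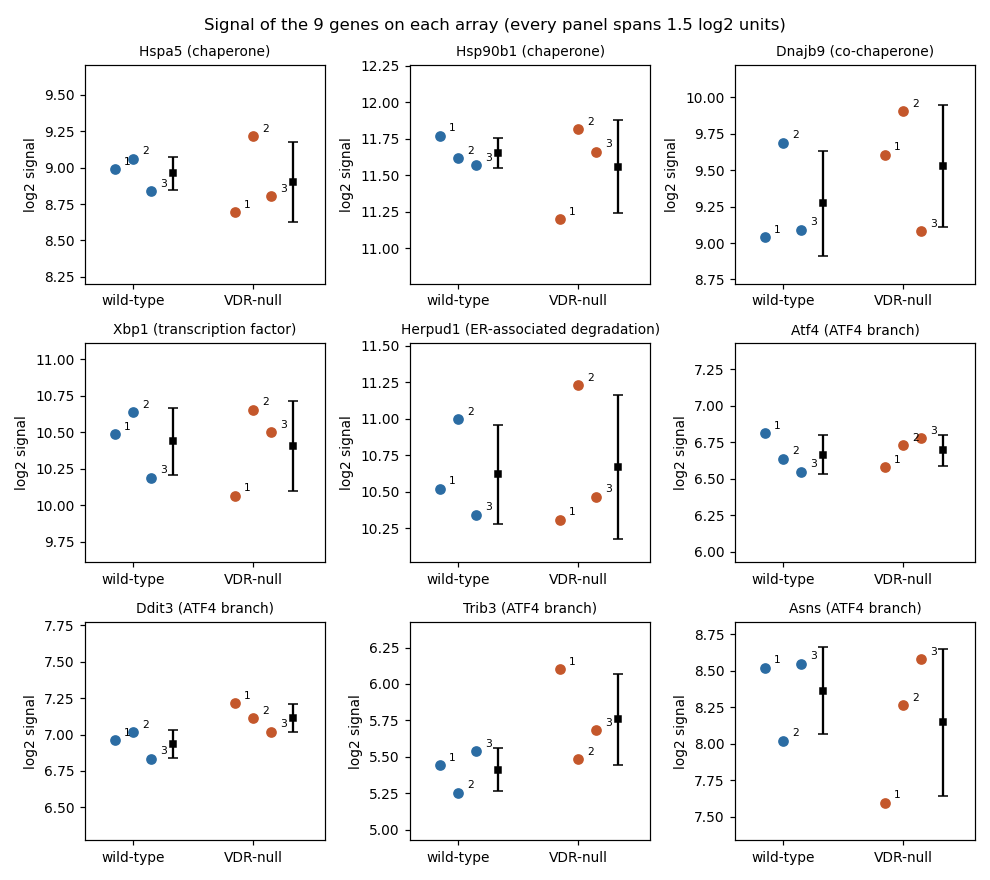
Log2 signal of each gene (y axis, 1.5 log2 units in every panel) in wild-type (blue) and VDR-null (orange) duodenum, with 1 point per array numbered by replicate and squares with bars for the mean ± SD of 3 arrays. The genotypes overlap in every gene except Ddit3, where the VDR-null arrays read 7.02 to 7.21 and the wild-type arrays 6.83 to 7.02.

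Hspa5 encodes BiP, the ER chaperone that also holds the sensors inactive. On the wild-type arrays, replicates 1 to 3, it stood at 8.99, 9.06 and 8.84, and on the VDR-null arrays in the same order at 8.69, 9.21 and 8.80. Both the highest and the lowest array were VDR-null, and the genotypes overlapped. The difference was -0.06 ± 0.15 (SE), with a 95% confidence interval from -0.42 to 0.30 and a limma adjusted p of 0.893.

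Hsp90b1, the ER member of the HSP90 family (GRP94), gave wild-type values of 11.77, 11.62 and 11.57 and VDR-null values of 11.20, 11.81 and 11.66. VDR-null replicate 1 was again the lowest array and replicate 2 the highest. The difference was -0.09 ± 0.17 (SE; limma adjusted p = 0.853), and it was 0.09 without VDR-null replicate 1, which also turned that of Hspa5, to 0.05.

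Dnajb9 (ERdj4) is a co-chaperone that stimulates BiP and feeds misfolded proteins into degradation. It did not share the low value of VDR-null replicate 1: its wild-type arrays read 9.04, 9.69 and 9.09 and its VDR-null arrays 9.60, 9.90 and 9.08. The 3 brighter arrays were wild-type replicate 2 and VDR-null replicates 1 and 2, so each genotype had bright and dim arrays. The difference was 0.26 ± 0.25 (SE; limma adjusted p = 0.736). It ranged from 0.07 to 0.48 when each array was left out in turn, and it was 0.00040 once adjusted for the mean of 17 brush border genes.

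Xbp1, the factor that drives the secretory apparatus, had wild-type values of 10.49, 10.64 and 10.19 and VDR-null values of 10.06, 10.66 and 10.50, a difference of -0.03 ± 0.19 (SE; limma adjusted p = 0.956). Herpud1, a membrane protein that helps assemble the ER-associated degradation complex, had a wider range. Its wild-type arrays gave 10.52, 11.00 and 10.34 and its VDR-null arrays 10.31, 11.23 and 10.47, a difference of 0.05 ± 0.27 (SE; limma adjusted p = 0.955). In both genes replicate 2 of each genotype was bright, and wild-type replicate 3 and VDR-null replicate 1 were the dimmest pair of arrays. The sign of either difference is not settled, since it was 0.14 for Xbp1 without VDR-null replicate 1 and 0.07 without wild-type replicate 2, and -0.23 for Herpud1 without VDR-null replicate 2.

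Within the ATF4 branch, Atf4 itself hardly varied. The wild-type arrays were at 6.81, 6.63 and 6.55 and the VDR-null arrays at 6.58, 6.73 and 6.78. The difference was 0.03 ± 0.11 (SE), with an interval from -0.22 to 0.28 (limma adjusted p = 0.924). The other 3 genes of the branch did not move in 1 direction.

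Ddit3 encodes CHOP, a factor linked to cell death under lasting stress. Its signal was 6.96, 7.02 and 6.83 on wild-type arrays against 7.21, 7.11 and 7.02 on VDR-null arrays. It was the member whose arrays did not overlap between the genotypes, although wild-type replicate 2 and VDR-null replicate 3 were nearly equal. Non-overlap held for 11.1% of all genes tested, and 1 of 9 is near that share. The difference was 0.18 ± 0.10 (SE), with an interval from -0.05 to 0.41 (limma adjusted p = 0.683), and lay between 0.13 and 0.23 with each array left out in turn.

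Trib3, a pseudokinase that restrains ATF4 and AKT signalling, was at 5.44, 5.25 and 5.54 on wild-type arrays against 6.10, 5.48 and 5.68 on VDR-null arrays. These signals lie close to the table's median of 5.17, so background may limit them, though no background level was measured. VDR-null replicate 1 stood above the other 5 arrays. The difference of 0.34 ± 0.17 (SE), with an interval from -0.06 to 0.75 and a limma adjusted p of 0.683, was the highest among the 9 genes, and it was 0.17 without VDR-null replicate 1. With array weights it was 0.10, below those of Dnajb9 and Herpud1 (0.56 and 0.54), none past the threshold.

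Asns, asparagine synthetase, makes asparagine and is a standard target of ATF4. The wild-type arrays gave 8.52, 8.02 and 8.55 and the VDR-null arrays 7.60, 8.27 and 8.58, so that VDR-null replicate 1 was the lowest array and VDR-null replicate 3 the highest. The difference was -0.22 ± 0.27 (SE; limma adjusted p = 0.787), and it was 0.06 without VDR-null replicate 1. On that array Asns lay at -0.66 and Trib3 at 0.52 from their 6-array means, in opposite directions, although the start region of each holds a CARE core. Like Asns, genes of cell division were lowest on VDR-null replicate 1 (mean deviation -0.38), while their highest array was wild-type replicate 1 (0.31). All 13 that were tested were lower on VDR-null arrays with no call, and their part in the signal of Asns was not tested.

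**Figure D3:**
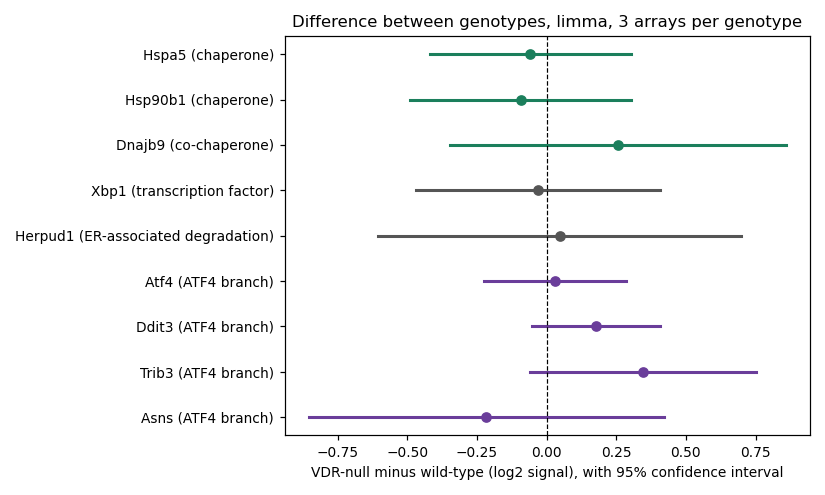
VDR-null minus wild-type log2 signal of the 9 genes (x axis) with the limma 95% confidence interval, green for chaperones, grey for Xbp1 and Herpud1 and purple for the ATF4 branch, from 3 arrays per genotype. Every interval includes 0, from Ddit3 (-0.05 to 0.41) to Asns (-0.85 to 0.42).

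The contrast between chaperones and the ATF4 branch was taken array by array, as the mean deviation from the 6-array mean of each gene. The means over members are descriptions and carry no test. For Hspa5, Hsp90b1 and Dnajb9 together it was -0.05, 0.14 and -0.15 on the wild-type arrays, against -0.15, 0.33 and -0.13 on the VDR-null ones. Replicate 2 of either genotype was above the average and the other 4 arrays below it. For Atf4, Ddit3, Trib3 and Asns it was 0.05, -0.16 and -0.02 on the wild-type arrays, against -0.01, 0.01 and 0.13 on the VDR-null ones. This mean hides the opposite deviations of Asns and Trib3. The chaperone mean likewise hides those of Hsp90b1 and Dnajb9, at 0.16 and -0.36 on wild-type replicate 1 and at -0.41 and 0.20 on VDR-null replicate 1.

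The chaperone mean differed by 0.04 between the genotypes and the ATF4 branch mean by 0.08. Chaperones minus ATF4 branch gave -0.10, 0.30 and -0.13 on the wild-type arrays and -0.13, 0.32 and -0.26 on the VDR-null arrays, with means of 0.02 ± 0.24 (SD, n = 3) and -0.02 ± 0.31 (n = 3). The spread between arrays of a genotype was therefore larger than the difference of -0.05. With each array left out in turn that difference lay between -0.22 and 0.09. The 2 arrays on which chaperones stood above the ATF4 branch were 1 of each genotype.

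**Figure D4:**
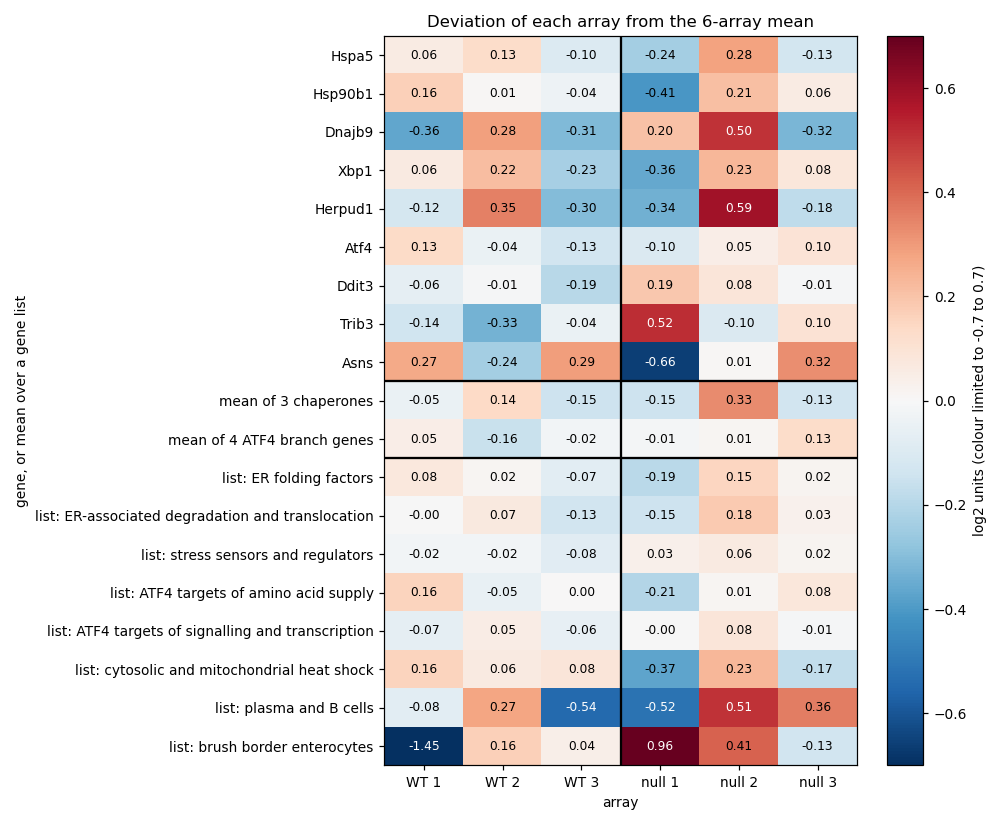
Deviation of each array (columns, WT for wild-type and null for VDR-null, by replicate) from the 6-array mean, in log2 units, for the 9 genes, for 2 means over them, and for the means of 8 gene lists. The chaperone mean, Xbp1 and Herpud1 are raised on replicate 2 of both genotypes (Herpud1 0.35 and 0.59), while Hsp90b1 lies at 0.01 on wild-type replicate 2. Asns and Trib3 stand opposite each other on VDR-null replicate 1 (-0.66 and 0.52).

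Markers of cell types varied along with some members. Genes of plasma and B cells, a list that includes Derl3 of the degradation list below, were higher in 8 of 10 tested cases with no call. Their summed linear signal ran from 5370.3 to 7800.0 on wild-type and from 4777 to 8463 on VDR-null arrays, and of 11 probe sets Ms4a1 was dim throughout. Their mean deviation was -0.08, 0.27 and -0.54 on the wild-type arrays, against -0.52, 0.51 and 0.36 on the VDR-null ones. As for Xbp1 and Herpud1, it was lowest on wild-type replicate 3 and VDR-null replicate 1 and high on replicate 2 of both. VDR-null replicate 3 differed, since the list lay at 0.36 there, Herpud1 at -0.18 and Xbp1 at 0.08. Jchain had wild-type values of 12.41, 12.52 and 12.07 and VDR-null values of 11.86, 12.58 and 12.48, a difference of -0.03 ± 0.21 (SE). Mzb1, a plasma cell protein of the ER, had wild-type values of 7.68, 8.34 and 6.69 and VDR-null values of 6.86, 8.68 and 8.38. Its difference was 0.40 ± 0.57 (SE). The part of these cells in the signals of the members was not tested.

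Paneth cell genes shared the pair of lowest arrays but were not raised on replicate 2. They were lower in 9 of 9 tested cases with no call, with deviations of 0.61, -0.03 and -0.26 on wild-type and -0.57, -0.10 and 0.34 on VDR-null arrays and a summed linear signal of 26079.7 to 41120.4 and 21592.5 to 35810.8. Goblet cell genes split 5 and 5 of 10 tested. The mean of their list deviated by about 0.09 at most on any array, and single genes by more. They summed to between 21856 and 23455 in wild-type and between 23072 and 24918 in VDR-null duodenum.

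The brush border list, 17 of 17 genes higher with no call, deviated by -1.45, 0.16 and 0.04 on the wild-type arrays, against 0.96, 0.41 and -0.13 on the VDR-null ones. Its summed linear signal ran from 18142 to 47805 and from 40169 to 74884.5. The array at its top, VDR-null replicate 1, was also the lowest for Hspa5, Hsp90b1, Xbp1, Herpud1 and Asns and the highest for Ddit3 and Trib3. Adjusted for that mean, the difference was 0.28 for Trib3, 0.15 for Ddit3, 0.15 for Atf4 and 0.09 for Asns, none past the threshold. The ATF4 branch mean then differed by 0.17, the chaperone mean by 0.01 and their contrast by -0.15.

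Genes of cell division, which mark the crypts, were lower in 13 of 13 tested cases with no call (median -0.26). They deviated by 0.31, -0.11 and 0.15 on the wild-type arrays, against -0.38, -0.12 and 0.15 on the VDR-null ones, and summed to between 6772 and 9199.8 and between 5523 and 8000.4 in linear signal. Smooth muscle genes were lower in 10 of 10 tested cases, 5 of them without overlap (50%, against 11.1% of all genes tested). Myh11 and Acta2 read at least 10.77 and 11.70 on every array. Genes of Brunner glands and gastric type mucosa were lower in 5 of 5 (median -1.06, 2 without overlap, 40%). T cell genes were higher in 8 of 8 (median 0.73). None of these genes was called, and the part of these tissues in the members' signals was not tested.

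Pancreatic acinar genes, which come from a tissue rich in ER chaperones next to the duodenum, were raised on VDR-null replicate 3 (mean deviation 1.59, against -0.60 to 0.07 on the other arrays). Of 15 probe sets 8 were tested, 5 higher and 3 lower, with no call, and the summed linear signal ran from 2237 to 5453 in wild-type and from 2726 to 10773.5 in VDR-null duodenum. Cpa1, carboxypeptidase A, read 10.11 there and at most 6.78 elsewhere. Not every gene of the list did so: Clps and Pnliprp2 were highest on wild-type replicate 1 (11.85 and 10.13), and Ptf1a, which defines acinar cells, was dim on all arrays (at most 4.37). On VDR-null replicate 3 Hspa5 lay at -0.13, Hsp90b1 at 0.06 and Dnajb9 at -0.32 from their means. Without that array the chaperone mean differed by 0.11. The part of acinar cells in these signals was not tested.

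As to the samples themselves, the enterocyte genes Vil1 and Sis read at least 10.48 on all 6 arrays, while lactase, Lct, ranged from 5.74 to 11.69. Vdr spanned 10.72 to 11.11 among wild-type and 10.85 to 10.99 among VDR-null arrays (difference -0.03 ± 0.12, SE; limma adjusted p = 0.944). A null allele can leave part of a transcript in place, and where the probes lie is not stated by the labels. This signal therefore does not check the labels.

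The rest of the pathway was followed in 6 lists, which include cytosolic and mitochondrial heat shock genes for comparison. Of their 140 genes 129 had a probe set of their own and 123 were tested. In limma 0 of the 123 passed an adjusted p of 0.05, 51 were higher and 72 lower on VDR-null arrays, and 3 had an unadjusted p under 0.05 (2.44%, against 5.23% of all genes). In 5 of the 123 the 2 genotypes' arrays were fully separate (4.07%, against 11.1%). The 14 heat shock genes gave 1 of the 51 higher, 13 of the 72 lower and 1 of these 5, so the counts are not those of the ER and ATF4 genes alone. Across all genes tested 44% were higher in VDR-null duodenum, with a median difference of -0.03. The 3 genes were picked here for that p: Slc3a2 (0.40 ± 0.14, SE), Eif2ak1, the heme-regulated eIF2 kinase (0.36 ± 0.14), and Creb3, an ER-anchored transcription factor (0.29 ± 0.11), each at a limma adjusted p of 0.683.

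Of the sensors and regulators 11 of 18 were higher and 7 lower, with a median of 0.02, which was -0.07 without wild-type replicate 3 and 0.08 without wild-type replicate 1. It was also below 0 without wild-type or VDR-null replicate 2 (-0.00071 and -0.0075) and with a second quantile normalization (-0.0026). Ern1, the widely expressed IRE1, differed by 0.02 ± 0.11 (SE), and its relative in mucus-making epithelium, Ern2, by -0.05 ± 0.16. Eif2ak3, encoding PERK, differed by 0.11 ± 0.13 and Atf6 by 0.01 ± 0.13. The differences of these 4 sensor genes were each smaller than their standard error. That of Eif2ak4, encoding GCN2, was not, at -0.14 ± 0.09 (SE; limma adjusted p = 0.683), and its arrays did not overlap. Non-overlap held for 3 of the 18 (16.7%, against 11.1% of all genes tested), with Eif2ak4 and Ppp1r15a lower and Creb3 higher.

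ER folding factors were higher in 9 of 24 cases and lower in 15, with a median of -0.04. The median was 0.08 without VDR-null replicate 1, 0.02 without wild-type replicate 1 and 0.11 without both, and 0.08 once adjusted for the brush border mean, so its direction is not settled. The lectin chaperones Calr and Canx, which hold glycoproteins until they fold, differed by -0.08 ± 0.11 (SE) and -0.10 ± 0.10. Hyou1, a nucleotide exchange factor for BiP, differed by -0.12 ± 0.14 and Sdf2l1, a chaperone cofactor, by -0.01 ± 0.22. As in Hspa5, the list was lowest on VDR-null replicate 1 (-0.19) and highest on VDR-null replicate 2 (0.15).

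In ER-associated degradation and translocation 16 of 26 genes were higher and 10 lower (median 0.04, but -0.05 without VDR-null replicate 2 and -0.01 without wild-type replicate 3). The ubiquitin ligase Syvn1 (HRD1) differed by -0.0087 ± 0.20 (SE), its partner Sel1l by 0.20 ± 0.12, the mannosidase-like Edem1 by 0.18 ± 0.19 and the channel protein Derl3 by 0.22 ± 0.40. Like Herpud1, which works with Syvn1 and Sel1l, the list deviated by 0.07 and 0.18 on replicate 2 of wild-type and VDR-null, and by -0.13 and -0.15 on wild-type replicate 3 and VDR-null replicate 1.

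Genes of amino acid supply that ATF4 controls were lower in 20 of 26 cases (median -0.11, against -0.03 over all genes). The serine synthesis enzymes Psat1 and Phgdh differed by -0.02 ± 0.18 (SE) and 0.08 ± 0.14. Slc3a2, the heavy chain shared by several amino acid exchangers, had wild-type values of 10.45, 10.70 and 10.77 and VDR-null values of 11.24, 11.03 and 10.84, without overlap. The cystine carrier Slc7a11 was too dim to be tested, with at most 4.34 on any array. The list deviated most on 1 array of each genotype, by 0.16 on wild-type replicate 1 and -0.21 on VDR-null replicate 1. Its median was -0.0074 without VDR-null replicate 1, -0.03 without wild-type replicate 1, 0.07 without both and 0.05 once adjusted for the brush border mean, so its direction rests on those arrays. The cell division genes were highest and lowest on the same arrays, and their part was not tested.

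ATF4 targets of signalling and transcription split 8 higher and 7 lower, with a median of 0.0027 whose sign is not settled: it was -0.0076 with no filter on dim genes, -0.00076 without wild-type replicate 3 and 0.07 without VDR-null replicate 3. The stress sensor Sesn2 differed by 0.13 ± 0.16 (SE), the transcription factor Atf3 by 0.38 ± 0.19 and the mTORC1 inhibitor Ddit4 by -0.0033 ± 0.39. Chac1, a glutathione-degrading enzyme and sensitive target of the branch, stayed between 4.80 and 5.09 on all arrays and was not tested. Atf3 had its highest value on VDR-null replicate 1 (7.02), as Trib3 and Ddit3 did.

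For comparison, cytosolic and mitochondrial heat shock genes, which answer mainly to HSF1 or to mitochondrial stress, were lower in 13 of 14 cases with no call. Their median was -0.16, but -0.07 without VDR-null replicate 1 and -0.04 without both replicate 1 arrays. Hspa1a and Hspa1b, the inducible HSP70 genes and near-identical copies whose probes may share signal, differed by -0.37 ± 0.41 (SE) and -0.56 ± 0.83, Dnajb1 by -0.09 ± 0.13 and Hsph1 by -0.37 ± 0.27. Hspa1b had wild-type values of 7.68, 8.09 and 7.12 and VDR-null values of 6.07, 9.17 and 5.98, with VDR-null arrays at both ends. The list mean was 0.23 on VDR-null replicate 2 and -0.37 and -0.17 on replicates 1 and 3, so that the array with the brightest ER chaperones also had the highest mean of heat shock genes.

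**Figure D5:**
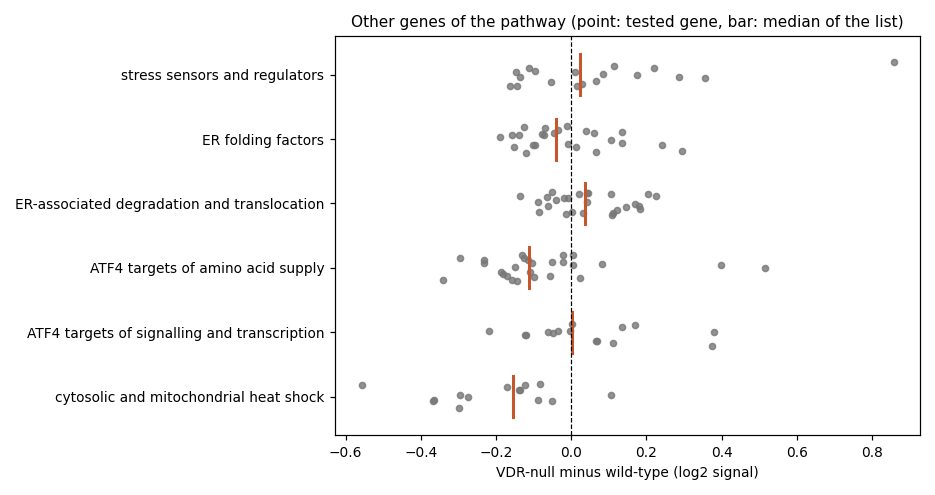
VDR-null minus wild-type log2 signal (x axis) of the 123 tested genes in 6 lists (heat shock genes included for comparison), 1 point per gene, with an orange bar at the median of each list. The medians lie between -0.16 for heat shock genes and 0.04 for ER-associated degradation.

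Of the ER folding factors outside the members with a RefSeq window, 6 of 21 held an ERSE (28.6%; Calr, Canx, Pdia6, Dnajc3, Creld2 and Ero1b), as did 2 of 23 degradation and translocation genes (Syvn1 and Derl3). None of the 24 genes of amino acid supply did. The CARE core was in 9 of those 24 (37.5%), in 6 of 17 signalling targets (35.3%) and in 2 of 21 folding factors (9.52%). The UPRE core was in 2 of 21 folding factors, 2 of 23 degradation and translocation genes, 1 of 24 genes of amino acid supply and 2 of 17 signalling targets, and the ERSE-II in 1 folding factor, Dnajb11. Taking every gene with an ERSE in its window, whatever its function, 15 outside the members were tested. Of these 7 were higher and 8 lower on VDR-null arrays, with a median of -0.0087 and 0 past the limma threshold (0 at an unadjusted p under 0.05). They deviated by 0.03, 0.02 and -0.02 on the wild-type arrays, against -0.17, 0.18 and -0.04 on the VDR-null ones. Calr, Canx, Pdia6, Dnajc3, Creld2, Ero1b, Syvn1 and Derl3 are among the 15, so this set largely repeats genes of the lists above. The 286 tested genes with a CARE core outside the members were 133 higher and 153 lower, with a median of -0.03, and their array means stayed between -0.04 and 0.03.

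By Pearson correlation over the 6 arrays, the genes outside the members most like the chaperone mean were Zmpste24 (0.989), Plcxd2 (0.987), Tmem214 (0.982), Zfp385a (0.979) and Rnf125 (0.974). Zmpste24 is a protease of the ER and nuclear membrane. Those most like the ATF4 branch mean were Nedd8 (0.990), Anxa4 (0.988), Ap1ar (0.972), Rnf157 (0.968) and Chic1 (0.966). They are the top of 13174 genes ranked over 6 points, where 25 and 12 genes exceeded 0.95, and the values describe these arrays alone.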

How the data were processed

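Duodenal RNA was measured on 6 arrays, 3 per genotype, grouped by the sample titles. Per the submitters' processing notes, the authors used RMA and Affymetrix Expression Console, and the table they deposited holds log2 values. Versions, and whether all arrays were normalized jointly, are not stated there. RMA equalises the signal distribution of arrays, so a shift shared by most genes would not be seen. Of 41345 probe sets, 23521 carry a single gene symbol, 1814 carry several and the other 16010 are unnamed here. Each gene was represented by its single-symbol probe set with the highest mean, and each of the 9 members had only 1.

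The linear model was fitted over 13174 genes by limma (version 3.58.1, run in R 4.3.3) with a two-sided moderated test, Benjamini-Hochberg adjustment and a threshold of 0.05. The code was tested on simulated data. Precision is limited by the number of arrays. The members and lists were chosen with earlier results of these data known. Named genes were the members, the first 4 of each pathway list with a probe set, the first 2 of cell type lists where used, any list gene past the threshold, and the 5 genes most like each branch mean. Eif2ak1, Eif2ak4, Ppp1r15a, Creb3, Ms4a1, Lct, Clps, Pnliprp2 and Ptf1a fall outside that rule and were named after their values were seen. Further genes are named for a motif match.

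Alternatives covered the filter, normalization, prior, array weights, replicate block, probe sets, arrays left out, a brush border covariate and the threshold. The labels state no pairing of same-numbered samples. Over all genes tested, their deviations correlated with r of -0.62, 0.19 and -0.26, against 0.68 for wild-type replicate 1 with VDR-null replicate 3. Deviations were centred within each genotype, which ties these values to each other. They cannot decide whether same-numbered samples shared a day or batch.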

Additional observations from a re-analysis of the deposited data

How the results depend on the processing

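No setting placed any of the 9 genes past the threshold. Over all genes limma called 0 under every setting except an unadjusted p under 0.05, which gave 689 genes, 3 of them in the pathway lists. An adjusted p under 0.1 gave 0. The chaperone mean difference ranged from -0.12 to 0.12 with each array left out in turn, that of the ATF4 branch from 0.03 to 0.13, and their contrast from -0.22 to 0.09. The branch differed by 0.17 and the contrast by -0.15 with the brush border covariate. Under the 12 alternatives run for each they moved by less than the SD within a genotype. Leaving out 1 of 3 arrays cannot shift a mean by that much, so those refits say nothing about stability on this measure. With the replicate number as a block limma called 0 genes, and the members kept their differences, Dnajb9, Ddit3 and Trib3 at an adjusted p of 0.831.

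Of 153 refits of single members, 132 kept the direction and 21 did not, all without a call. Refits that changed only the filter, the prior, the replicate block or the choice of probe set could not alter a member's difference. They are among the 132 by construction and say nothing about stability of direction. Dnajb9, Ddit3 and Trib3 stayed higher in all 17 refits each. With array weights, Hspa5, Hsp90b1 and Xbp1 were at 0.21, 0.13 and 0.25, Herpud1 went from 0.05 to 0.54 and Dnajb9 from 0.26 to 0.56 (limma adjusted p = 0.219), and Trib3 went from 0.34 to 0.10. Without both replicate 1 arrays, Hspa5, Hsp90b1, Asns and Xbp1 were at 0.060, 0.15, 0.14 and 0.17. With the brush border covariate, Hsp90b1, Asns and Xbp1 were at 0.069, 0.088 and 0.077, and with cyclic loess Xbp1 was at 0.0032. With each array left out in turn, the differences ranged from -0.21 to 0.047 for Hspa5, -0.22 to 0.087 for Hsp90b1, -0.029 to 0.10 for Atf4, -0.43 to 0.059 for Asns, -0.16 to 0.14 for Xbp1 and -0.23 to 0.24 for Herpud1. The cause was not tested.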
